A study of Mus musculus with 4 samples.

Results

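The 10 genes described here, Areg, Ereg, Btc, Egfr, Ptgs2, Ptger2, Has2, Tnfaip6, Ptx3 and Runx1, carry the ovulatory epidermal growth factor (EGF) signal and build the cumulus matrix in the ovary. They were taken by name from the 32285 genes in the count matrices, by a rule that used no measured value, although the list was drawn up with earlier results of these data known. The data were single-cell RNA-seq libraries made with droplet-based 3′ chemistry from whole dissociated ovaries of sexually mature, 8-week-old female mice, taken in estrus by vaginal smear. Control mice (Fosl2F/F, 2 libraries) carried floxed alleles of Fosl2, which encodes a subunit of the AP-1 transcription factor. Fosl2cKO mice (2 libraries) carried the same floxed alleles together with Cyp19a1-Cre, in which the aromatase promoter drives Cre in granulosa cells (GCs). Mutants and controls came from the same litters, and no hormone injection was stated for these animals. With 2 libraries per group, every p-value below measures the spread between these libraries.

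The ovulatory surge of luteinizing hormone acts on mural GCs, which line the follicle wall. They release the EGF-like ligands encoded by Areg, Ereg and Btc, which are made as membrane-bound precursors and shed by proteases. The ligands act on the EGF receptor of the cumulus GCs that surround the oocyte. The cumulus cells then induce the prostaglandin synthase Ptgs2 and the hyaluronan matrix genes Has2, Tnfaip6 and Ptx3, and the matrix swells into the expanded cumulus. Most of these genes are brief, surge-dependent transcripts in GCs, and several also serve in stromal, vascular and immune cells.

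All 10 genes were protein-coding in the GRCm38 annotation. Ereg (chromosome 5, 91074622 to 91093646), Areg (91139599 to 91148432) and Btc (91357261 to 91402994) lie side by side on chromosome 5. The gap between Ereg and Areg is 46.0 kb and that between Areg and Btc is 209 kb, with Btc on the opposite strand to the other two. Antisense or opposite-strand genes overlap Ereg, Egfr, Has2, Ptx3, Ptger2 and Runx1. Among the 8 genes with a RefSeq promoter (250 bases before to 50 after the start), Tnfaip6 held an AP-1 motif and Areg a cyclic AMP response element (CRE). These windows are shown because Fosl2 is an AP-1 subunit and the surge acts through cyclic AMP. The motif is in capitals, 5′ to 3′ on the plus strand of GRCm38.p6.
Tnfaip6 AP-1 motif, chr2:52037960-52037989, 142 bases before the RefSeq start and 38 before that of the annotation used for the genes: gccaatgcaaaTGAGTCAgagggcttgctt
Areg CRE, chr5:91139527-91139556, 61 bases before both starts: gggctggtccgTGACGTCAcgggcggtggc
The AP-1 letters searched were TGACTCA or TGAGTCA, which are each other's reverse complement, and 5.2% of the 32851 promoters in the table held them. The CRE letters TGACGTCA read the same on both strands and were present in 1.79% of the promoters. The 2 motifs do not overlap each other, and a match is no measure of binding.

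After filtering and removal of called doublets, 8150, 19575, 6760 and 7053 cells were kept in Fosl2F/F 1, Fosl2F/F 2, Fosl2cKO 1 and Fosl2cKO 2, and values below follow this order. Median depth was 11177, 3656, 12297 and 12465 UMIs (unique molecular identifiers, counted once per captured transcript), so Fosl2F/F 2 stood apart with more and shallower cells. Between 15 and 81 barcodes were shared by any pair of libraries, at most 0.763% of the smaller one. Clustering without the 10 genes gave 25 clusters, of which 22 were named from marker lists and 15748 cells were GC-like. Clusters 1 (4190 cells, led by Enpep and Asb4), 2 (3657 cells, led by Abcb1b, with theca and luteal marker scores close to each other) and 16 (827 cells, led by Enpep and Hhip) had no clear name. Within the GC-like cells, mural-like, cumulus-like, atretic-like, mitotic-like and mitotic-antral-like states were named. In all, 16 classes and 9 GC states held at least 20 cells in every library. Fosl2 itself, the targeted gene, stood at 161, 167, 167 and 115 CPM (UMIs of a gene, scaled to a total of 1000000 UMIs for each class and library) in GC-like cells, so the groups overlapped. The paper placed LoxP sites around coding sequence of Fosl2 and reported depleted Fosl2 protein in GCs of Fosl2cKO mice by immunoblot. Whether the deleted part includes the 3′ end that is counted was not tested, so the libraries are called here by their labels. Fosl2cKO 1 stood apart from the other 3 libraries for several of the 10 genes outside the GCs, and results that rest on it are given with and without it.

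The genes of the ovulatory program were scarce in GC-like cells of all 4 libraries, while Egfr and Runx1 were present throughout. For 8 of the 10 genes the mean GC-like level was under 10 CPM, and their highest class lay outside the GCs. Egfr and Runx1 also had their highest class elsewhere, but GC-like cells reached 72.5 to 116 CPM of Egfr and 111 to 218 CPM of Runx1. Levels of different genes were not compared with each other, since only 3′ ends were counted, and class-to-class differences are descriptive because the classes come from the same cells.

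**Figure D1:**
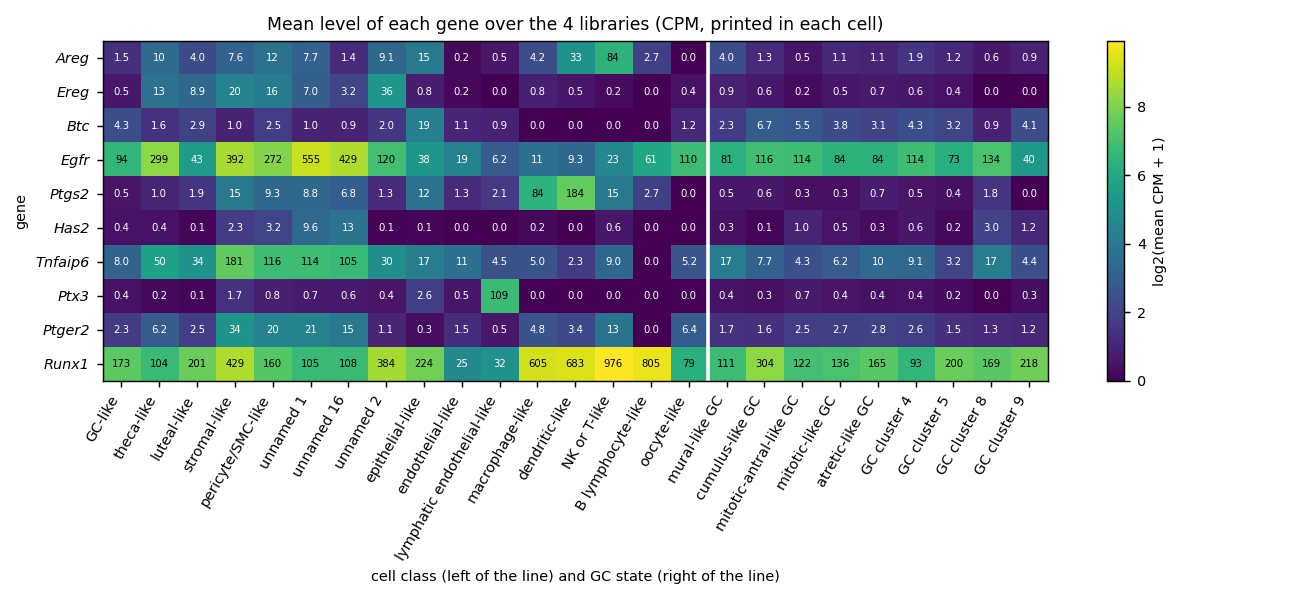
Heat map of the mean level of each gene (rows) over the 4 libraries in 16 cell classes (left of the white line) and 9 GC states (right), with color on a log2(CPM + 1) scale and the mean CPM printed in each cell. Read along a row: Areg was highest in NK or T-like, Ptgs2 in dendritic-like, Tnfaip6 in stromal-like and Ptx3 in lymphatic endothelial-like cells, and GC-like cells were low for each of them.

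The ligand Areg (amphiregulin) was highest in NK or T-like lymphocytes, with 86.9, 61.8, 63.2 and 123 CPM. The lowest of these lay above every library of the 15 other classes. Dendritic-like cells followed with 3.49, 56.6, 53.2 and 17.6 CPM. Their range overlapped that of epithelial-like cells, the next class in mean, but lay above that of GC-like cells. The lymphocyte transcripts were concentrated in few cells: 12 of 186, 8 of 248, 24 of 296 and 15 of 190 cells held 65, 24, 70 and 93 UMIs. GC-like cells had 2.002, 1.83, 1.38 and 0.95 CPM of Areg, and mural-like cells, the GC state with the highest mean, had 5.08, 6.15, 3.54 and 1.42 CPM. Of the mural-like cells, 41 of 990, 7 of 475, 10 of 238 and 3 of 123 held 65, 16, 19 and 3 Areg UMIs, with at most 8 in a cell. Both Fosl2cKO libraries were thus below both Fosl2F/F libraries in GC-like and in mural-like cells, although mural-like cells overlapped 6 of the 8 other GC states in level.

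Ereg (epiregulin), the neighbour of Areg, had a different distribution, with stromal and steroidogenic rather than lymphocyte cells on top. Cluster 2 had 15.53, 17.7, 92.4 and 20.3 CPM and stromal-like cells had 26.3, 16.9, 31.7 and 6.998 CPM, and the ranges overlapped. Pericyte or smooth muscle-like and theca-like cells followed, with 5.33 to 29.1 and 4.81 to 18.6 CPM. Fosl2cKO 1 was the highest library in cluster 2, stromal-like and pericyte or smooth muscle-like cells. In cluster 2 of that library 180 of 757 cells held an Ereg UMI, compared with 22 of 342, 84 of 2044 and 24 of 514 in the other libraries. GC-like cells had 0.60, 0.76, 0.52 and 0.29 CPM, which lay below 6 other classes in every library. The mural-like mean of 0.90 CPM was the highest of the GC states and rested on 10, 2, 6 and 2 UMIs.

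Btc (betacellulin) was the ligand with the largest share of its UMIs in GC-like cells in every library. Epithelial-like cells had the highest level, 15.8, 21.7, 23.4 and 13.2 CPM, above all libraries of the 15 other classes. GC-like cells came second in mean with 3.79, 5.75, 4.12 and 3.37 CPM, wholly above 8 other classes. GC-like cells held 80.2, 59.5, 47.1 and 66.8% of all Btc UMIs in the kept cells, and epithelial-like cells held 7.40 to 18.8%. Of the UMIs of all genes, GC-like cells held 36.7 to 66.2%. Macrophage-like, dendritic-like, NK or T-like and B lymphocyte-like cells held no Btc UMI in any library. Within the GCs the cumulus-like state had the highest mean, with 7.51, 9.53, 5.74 and 3.91 CPM, and it overlapped 5 of the 8 other states.

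The receptor gene Egfr was found in stromal and follicular cells alike. Cluster 1 had 320, 607, 651 and 643 CPM, stromal-like cells 303, 401, 365 and 501 CPM and theca-like cells 266, 311, 266 and 352 CPM. GC-like cells had 72.5, 116, 90.2 and 96.4 CPM, below 5 classes and above 6 classes in every library. Lymphatic endothelial-like, dendritic-like and macrophage-like cells had the lowest means. The cumulus-like cells had 54.4, 140, 144 and 127 CPM, and the mural-like cells 85.5, 70.7, 69.4 and 98.3 CPM, with overlapping ranges. To compare shares of cells at one depth, each cell was thinned to 2000 UMIs, which kept 4439 of 4570, 6010 of 6577, 2140 of 2201 and 2357 of 2400 GC-like cells. After thinning, 12.1, 18.0, 16.1 and 15.9% of GC-like cells held an Egfr UMI, against 2.45, 5.26, 0.71 and 1.71% of NK or T-like cells, which should lack it. Without thinning the shares were 36.2 to 61.3% and 2.37 to 4.44%, at median depths of 4596 to 19190 and 1364 to 3434 UMIs.

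**Figure D2:**
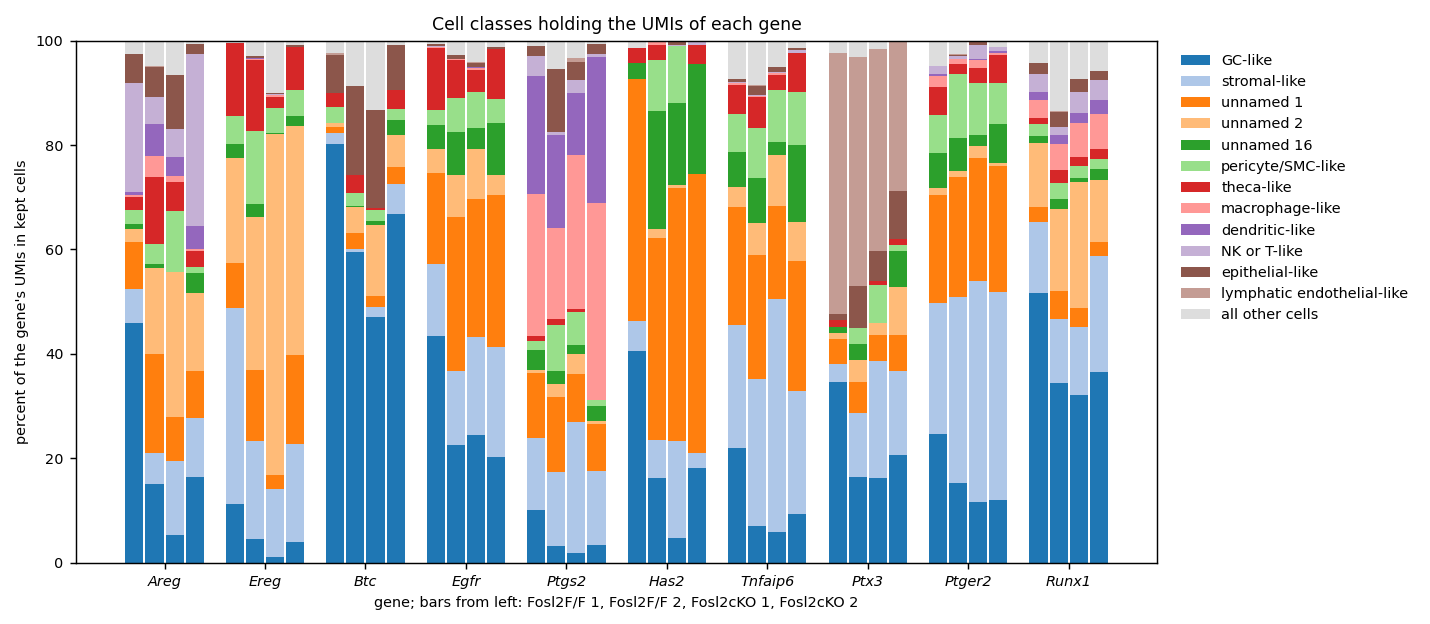
Stacked bars of the share of each gene's UMIs (y axis, percent of the UMIs in kept cells) that lay in each cell class, one bar per library and 4 bars per gene in the order Fosl2F/F 1, Fosl2F/F 2, Fosl2cKO 1 and Fosl2cKO 2. GC-like cells held most Btc UMIs in 3 of 4 libraries and 1.73 to 10.2% of Ptgs2 UMIs. For each gene the GC-like part was largest in Fosl2F/F 1, where their share of all UMIs (36.7 to 66.2% over libraries) was also largest.

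Ptgs2, the inducible cyclooxygenase that makes prostaglandin precursors, had its highest levels in myeloid cells. Dendritic-like cells had 148, 236, 153 and 199 CPM and macrophage-like cells 69.0, 70.5, 93.2 and 102 CPM, and the ranges did not overlap. Stromal-like cells came next in mean with 9.32, 13.2, 30.8 and 7.101 CPM, below both. GC-like cells had 0.53, 0.55, 0.40 and 0.33 CPM, second to last among 16 classes and below 8 of them in every library. These were 38, 21, 20 and 16 UMIs in all GC-like cells of a library, and cumulus-like cells held 5, 7, 4 and 3 of them. Macrophage-like cells held 17.5 to 37.8% and dendritic-like cells 11.96 to 27.9% of all Ptgs2 UMIs, and stromal-like cells and cluster 1 held 13.6 to 25.1 and 9.04 to 14.3%.

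Ptger2, which encodes the prostaglandin E receptor EP2 of cumulus cells, followed the stroma. Stromal-like cells had 32.7, 35.5, 30.02 and 39.1 CPM, above every library of the 15 other classes and nearly even across libraries. Cluster 1 and pericyte or smooth muscle-like cells followed with 16.6 to 22.8 and 17.1 to 21.9 CPM, overlapping each other. GC-like cells had 2.48, 2.77, 1.54 and 2.38 CPM. Cumulus-like cells had 0.90, 2.26, 1.66 and 1.41 CPM. Atretic-like cells had the highest mean of the GC states and overlapped the 8 others.

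Among the matrix genes, Has2, the hyaluronan synthase, was rare, with 69, 111, 362 and 110 UMIs in all kept cells. Cluster 1 held 38.7 to 53.6% of them at 4.93, 4.46, 23.5 and 5.62 CPM. Cluster 16 had 0.90, 7.41, 38.0 and 4.68 CPM. Fosl2cKO 1 was the highest library in both clusters. In it, 41 of the 537 cells of cluster 1 held 176 UMIs. GC-like cells had 0.39, 0.47, 0.34 and 0.41 CPM. Cumulus-like cells had 0.30 and 0.098 CPM in the controls, from 2 and 1 UMIs, and no UMI in either Fosl2cKO library.

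Tnfaip6, whose product transfers heavy chains onto hyaluronan and so cross-links the matrix, was highest in stromal cells and low in GCs. Stromal-like cells had 138, 210, 311 and 64.4 CPM, pericyte or smooth muscle-like cells 92.3, 122, 169 and 78.5 CPM and cluster 1 had 111, 128, 156 and 63.1 CPM. In these classes Fosl2cKO 1 was the highest library and Fosl2cKO 2 the lowest, so that the Fosl2cKO libraries lay on either side of the controls. GC-like cells had 9.81, 9.51, 7.77 and 5.08 CPM. Mural-like cells had the highest mean of the GC states, from 15.6, 27.3, 22.1 and 2.85 CPM, and overlapped the 8 others. Here the last value came from 6 UMIs in 123 cells. Thinned to 2000 UMIs, 1.92, 1.73, 1.21 and 0.93% of GC-like cells held a Tnfaip6 UMI, and of NK or T-like cells 0.356% did in Fosl2cKO 1 and 0 of 163, 38 and 175 in the others, which allows up to 1.84, 7.89 and 1.71%. Blood endothelial-like cells reached 1.75, 2.84, 1.27 and 0%, where 0 of 164 cells allows up to 1.83%, so the GC-like shares could not be separated from those of this class at this depth. Without thinning the shares were 4.09 to 10.1% of GC-like and 2.76 to 5.19% of blood endothelial-like cells, whose median depth was 3412 to 8029 UMIs.

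Ptx3, which encodes the pentraxin that anchors the cumulus matrix, was almost a marker of lymphatic endothelium. Lymphatic endothelial-like cells had 155, 94.0, 43.4 and 145 CPM, from 25 to 48 UMIs per library, and the highest library of any other class had 5.03 CPM. GC-like cells had 0.41, 0.42, 0.40 and 0.37 CPM. The endothelial-like cells of blood vessels had 1.87, 0.25, 0 and 0 CPM, so the transcript separated the 2 endothelial classes.

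Runx1, a transcription factor that the surge induces in GCs and that blood cells use throughout, was highest in lymphocytes. NK or T-like cells had 691, 975, 1187 and 1050 CPM and overlapped B lymphocyte-like, dendritic-like and macrophage-like cells. GC-like cells had 111, 218, 211 and 151 CPM and held 32.2 to 51.7% of all Runx1 UMIs, against 36.7 to 66.2% of the UMIs of all genes. The cumulus-like state had the highest mean of the 9 GC states, 220, 359, 346 and 290 CPM, and its range lay above 4 of the others. Mural-like cells had 67.5, 126, 178 and 71.2 CPM, below the cumulus-like cells of every library. Thinned to 2000 UMIs, 17.5, 31.4, 31.0 and 24.6% of GC-like cells held a Runx1 UMI, compared with 5.26, 3.93, 2.53 and 3.05% of blood endothelial-like cells.

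**Figure D3:**
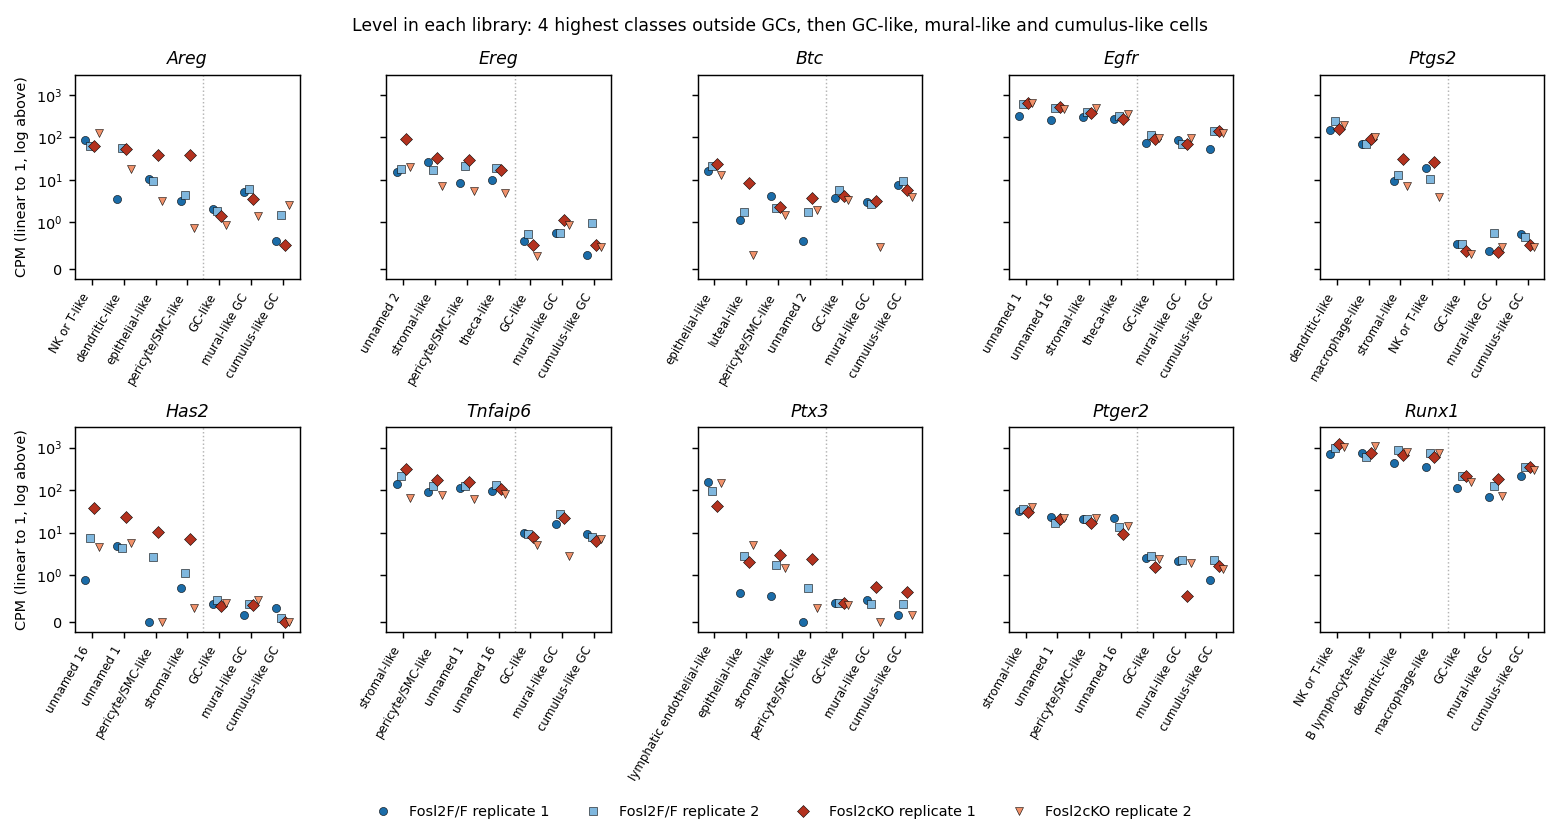
Level of each gene (y axis, CPM, linear to 1 and logarithmic above) in each library, for the 4 highest classes outside the GCs and, right of the dotted line, GC-like, mural-like and cumulus-like cells; blue circles and squares are Fosl2F/F libraries, red diamonds and triangles Fosl2cKO libraries. Fosl2cKO 1 (diamonds) was the highest library for Areg in pericyte or smooth muscle-like, Ereg in cluster 2 and Has2 in cluster 1. Fosl2cKO 2 (triangles) lay close to the controls for Ereg and Has2 there and below them for Areg, at 0.89 against 3.24 and 4.36 CPM.

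Free RNA can give UMIs in cells that do not express a gene, so the scarce genes were compared with blood endothelial-like cells. For Ptgs2, Has2 and Ptx3 the reference set in the plan was NK or T-like cells, and blood endothelial-like cells stand in its place here. NK or T-like cells held no Ptx3 UMI in any library and 0, 0, 0.276 and 0.909% of all Has2 UMIs. Their Ptgs2 level averaged 14.5 CPM in Fosl2F/F and 15.1 CPM in Fosl2cKO libraries. Thinned to 2000 UMIs, 0.496, 0.2995 and 0.234% of GC-like cells held an Areg UMI in the first 3 libraries, and 0 of 2357 in Fosl2cKO 2. Blood endothelial-like cells, which should lack Areg, held it in 0 of 114, 458, 158 and 164 cells, which allows up to 2.63, 0.655, 1.90 and 1.83% by counting error alone. Without thinning, 0.806 to 2.54% of GC-like cells and at most 0.553% of blood endothelial-like cells held one. The thinned Ereg, Ptger2, Ptgs2, Has2 and Ptx3 shares of GC-like cells were each at most 0.433%. Has2 was found in no thinned blood endothelial-like cell. Ereg and Ptger2 were each found there in 1 cell, of Fosl2F/F 2 (0.218%), Ptx3 in 0.877 and 0.218% of the control cells and Ptgs2 in 0.218% in Fosl2F/F 2 and 1.27% in Fosl2cKO 1. At this depth the GC-like shares of Areg and of these 5 genes could not be separated from those of blood endothelial-like cells, which were too few for shares this small. Over all UMIs, Areg was at most 0.414 CPM in blood endothelial-like and at least 0.95 CPM in GC-like cells. Has2 was absent from the former and at least 0.34 CPM in the latter. Both rested on few UMIs or none in blood endothelial-like cells. For Btc the shares were 0.698, 0.849, 0.981 and 0.594% of GC-like cells against 0.877% in Fosl2F/F 1 and 0 in the others, and in Fosl2F/F 2 the GC-like share was above the 0.655% that a count of 0 allows. In the other direction, Inha, an inhibin gene of GCs, was at 1.78 to 4.01% of its GC-like level in blood endothelial-like cells and at 2.90 to 11.4% in NK or T-like cells, which should both lack it. The summed level of 8 NK or T markers in GC-like cells was 1.81 to 4.08 CPM and that of 9 stromal markers 65.2 to 135 CPM. Their part in the levels of Areg or Tnfaip6 in GC-like cells was not tested.

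The study deleted Fosl2 in GCs to follow what its loss does to the ovary, so each gene was compared between Fosl2cKO and Fosl2F/F libraries. UMIs were summed per class and library and fitted with edgeR's quasi-likelihood test over all genes, and a gene was called where its adjusted p was below 0.1 and its log2 difference exceeded 0.25 either way. In GC-like cells none of the 10 genes passed, and none had an unadjusted p under 0.05 (4.72% of all genes did). By the same rule 1 of 17255 genes passed there (0.0058%). DESeq2 called none of the 10 either, and 0.979% of all genes. The log2 differences (Fosl2cKO minus Fosl2F/F) in GC-like cells were -0.75 ± 0.35 (SE) for Areg, -0.77 ± 0.46 for Ereg and -0.37 ± 0.29 for Btc. They were -0.04 ± 0.23 for Egfr, -0.59 ± 0.41 for Ptgs2 and -0.44 ± 0.34 for Ptger2. Those of the matrix genes were -0.21 ± 0.43 for Has2, -0.62 ± 0.26 for Tnfaip6 and -0.12 ± 0.42 for Ptx3, and that of Runx1 was 0.12 ± 0.32. Over all genes tested there the median difference was -0.022. The values of Ereg, Ptgs2, Has2 and Ptx3 rested on 14 to 43 UMIs per library. Among the 10 genes the estimate was below 0 for 9, with none past the test. It was below 0 for 8 genes with the called doublets kept, where Ptx3 turned, and for 8 to 10 genes without single libraries, where Egfr and Runx1 turned. The edgeR adjusted p was 0.9999 for each.

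In GC-like cells both Fosl2cKO libraries were lower than both Fosl2F/F libraries for 6 of the 10 genes, Areg, Ereg, Ptgs2, Tnfaip6, Ptx3 and Ptger2. For no gene were both higher. Fosl2F/F 2, the library with shallower cells, was the highest for 8 of the 10 genes (against 24.6% of all genes) and Fosl2F/F 1 for Areg and Tnfaip6. Over all genes tested there, both Fosl2cKO libraries were lower for 14.6% and higher for 17.1%. For Ptx3 the separation was small, 0.41 and 0.42 against 0.40 and 0.37 CPM. With the called doublets kept, 3 of the 10 genes were lower in both libraries, and the share over all genes under that setting is not given here. In the same cells 9 stromal markers summed to 65.2, 135, 86.3 and 95.4 CPM, which overlapped. Mural-like cells were 990 of 4570, 475 of 6577, 238 of 2201 and 123 of 2400 of the GC-like cells, and these shares also overlapped between the groups. Lhcgr, the receptor for the surge hormone and a mural marker, was at 201, 77.6, 36.6 and 30.7 CPM in GC-like cells, lower in both Fosl2cKO libraries. Its part in the levels of the 6 genes was not tested.

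Across the 9 GC states, 40 gene-by-state tests could be made and none passed. Unadjusted p was under 0.05 in 3 of them (7.5%, against 6.03% of all genes), and DESeq2 called none. Of all genes tested in these states edgeR called 0.0518% and DESeq2 0.586%. The 3 tests were Btc in cumulus-like cells (-0.87 ± 0.35), and Tnfaip6 in mitotic-like cells (-0.79 ± 0.33) and in GC cluster 4 (-0.98 ± 0.40), a cluster led by Kcne2 and Grem1. Without single libraries Tnfaip6 ranged from -1.13 (without Fosl2F/F 2) to -0.32 (without Fosl2F/F 1) in mitotic-like cells and from -1.52 (without Fosl2cKO 1) to -0.59 (without Fosl2cKO 2) in GC cluster 4. Btc in cumulus-like cells was 7.51 and 9.53 CPM in the controls against 5.74 and 3.91 CPM, without overlap. In cumulus-like cells 2 of 6 tested genes, Btc and Tnfaip6, were lower in both Fosl2cKO libraries, where the share over all genes was 11.8%.

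Mural-like cells gave an Areg difference of -1.06 ± 0.53, with both Fosl2cKO libraries lower. It was -2.00 without Fosl2cKO 1 and -0.70 without Fosl2cKO 2. The value of Fosl2cKO 2 rested on 3 Areg UMIs in 123 cells, and that of Fosl2F/F 2 on 16 UMIs held by 7 cells. Areg was the sole gene of the 5 tested there without overlap between groups, and 11.7% of all genes were lower in this way. Tnfaip6 in mural-like cells differed by -0.65 ± 0.63, and this value depended on 1 library. Without Fosl2cKO 1 it was -2.91, at an edgeR adjusted p of 1.1e-04, where the remaining Fosl2cKO 2 held 2.85 CPM and is assumed to vary like the other libraries. Without Fosl2cKO 2 it was 0.036. The summed level of 18 immediate early and heat shock genes, which tissue dissociation is known to induce, was 13300, 12400, 12680 and 10150 CPM in mural-like cells, lowest in Fosl2cKO 2, and its part in these levels was not tested. Runx1 in mitotic-antral-like cells passed only when Fosl2F/F 2 was left out, with 1.33 at an edgeR adjusted p of 0.0795. In the GC states, edgeR called 0.0503 and 0.521% of all genes without Fosl2F/F 1 and Fosl2F/F 2, and 1.4 and 1.17% without Fosl2cKO 1 and Fosl2cKO 2. The difference between the effects in mural-like and cumulus-like cells was tested as a class-by-condition term for 6 genes. None passed an adjusted p of 0.05, and 0% of the 13771 genes did, with 432 at an unadjusted p under 0.05 and 5 called by DESeq2. For Areg the term was -1.38 ± 1.05 and for Ptger2 -1.26 ± 0.96, and both depended on single libraries. Without integration of the libraries the Areg, Ptger2 and Tnfaip6 terms were -2.20, -0.40 and -0.94. The Egfr term, -0.61 ± 0.47, ran from 0.23 without Fosl2F/F 1 to -1.37 without Fosl2F/F 2. The Areg term was -3.30 without Fosl2cKO 1 (edgeR adjusted p = 0.34) and turned to 0.30 without Fosl2cKO 2. The Ptger2 term was -0.24 without Fosl2cKO 1 and -2.17 without Fosl2cKO 2. The Tnfaip6 term, -0.38 ± 0.76, was -2.57 without Fosl2cKO 1 (edgeR adjusted p = 0.0502) and turned to 0.59 without Fosl2cKO 2 and to 0.096 without Fosl2F/F 2.

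**Figure D4:**
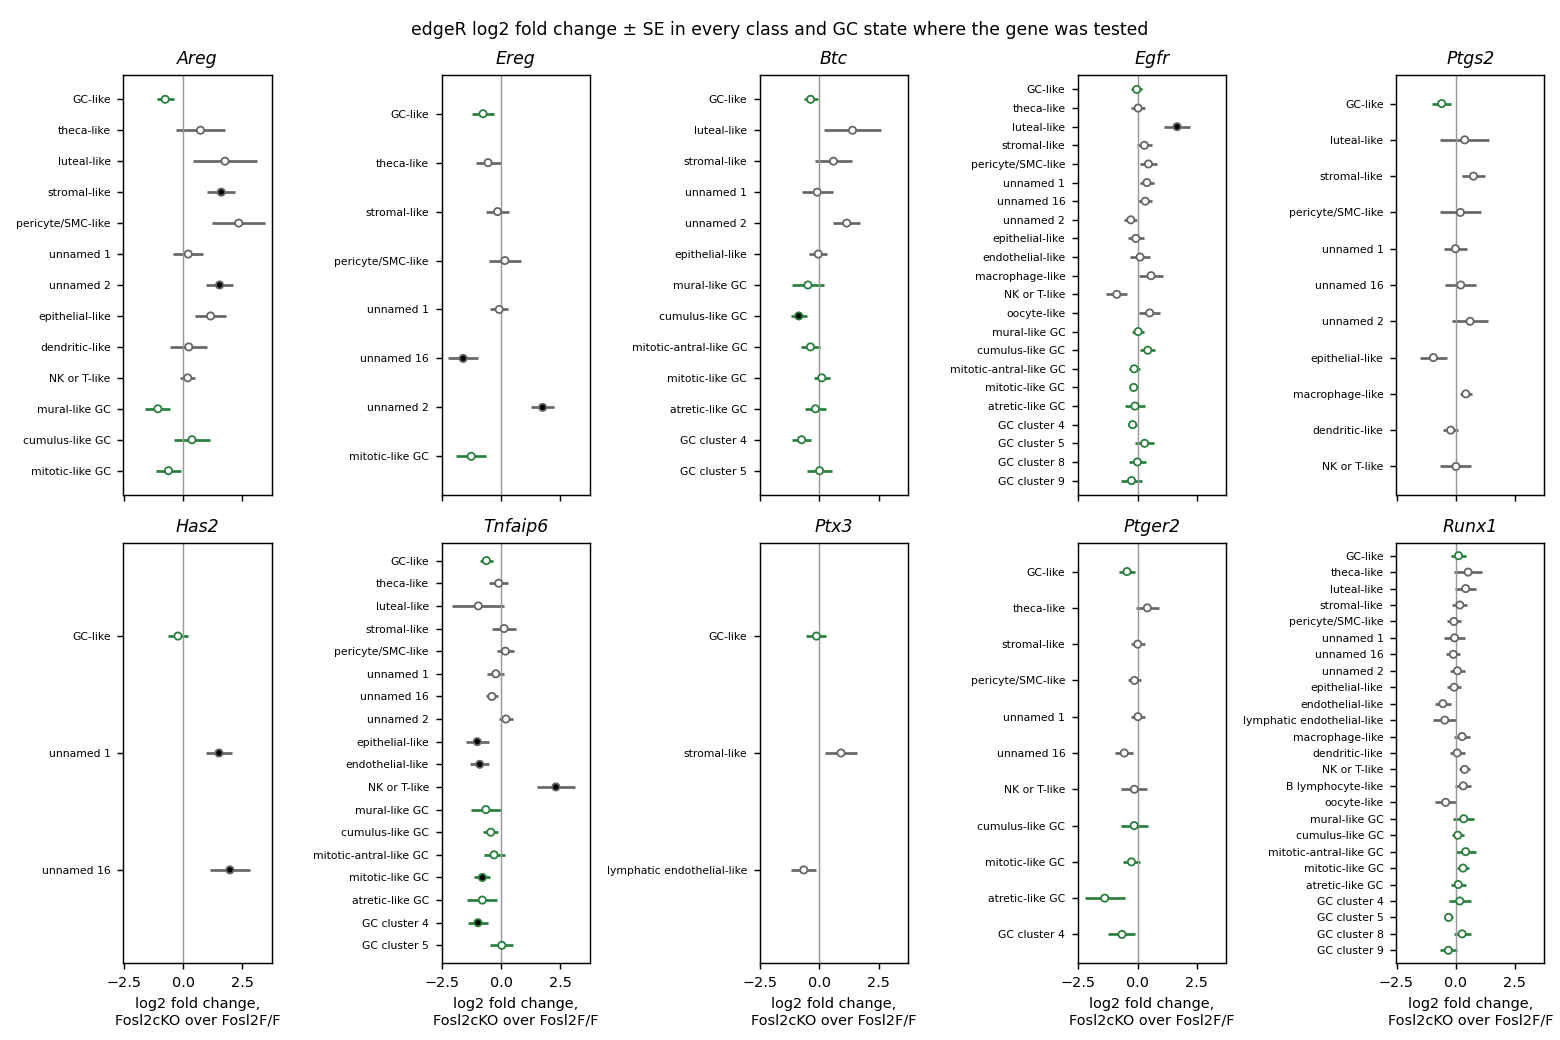
Log2 fold change of Fosl2cKO over Fosl2F/F (x axis) with its standard error (bars) from edgeR for each gene in every class and GC state where it was tested; green marks GC-like cells and GC states, grey the other classes, and filled points an unadjusted p under 0.05. Of the 127 points 13 are filled, and in GC-like cells 9 of 10 lie left of 0, some of them by less than their standard error. Points of the GC states reuse UMIs of the GC-like cells.

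In the 15 classes other than GC-like cells, 77 tests were made. They include luteal-like cells, which arise from GCs and so from cells in which Cyp19a1-Cre can have acted. EdgeR called none of them, 10 had an unadjusted p under 0.05 (13.0%, against 5.44% of all genes), and 0.117% of all genes tested in these classes passed. DESeq2 called 1 (and 0.507% of all genes), Egfr in luteal-like cells, with a difference of 1.70 at an adjusted p of 0.0966, in a class where it called 3.45% of all genes. Luteal-like Egfr was at 14.5, 23.6, 97.2 and 35.9 CPM, with Fosl2cKO 1 highest, and its edgeR difference of 1.67 ± 0.54 was 0.75 without Fosl2cKO 1 and 2.23 without Fosl2cKO 2, neither called. It was higher in both Fosl2cKO libraries, and 29.5% of all genes were higher in that way. The summed immediate early and heat shock genes were also higher there, with 7630, 9863, 15260 and 19660 CPM, and their part was not tested. The smallest adjusted p by edgeR was that of Ereg in cluster 2, 0.30, with a difference of 1.75 ± 0.47. There Areg differed by 1.54 ± 0.56, and 2 of the 7 genes tested, Ereg and Btc, were higher in both Fosl2cKO libraries, against 16.8% of all genes. Has2 differed by 1.52 ± 0.55 in cluster 1 and by 1.98 ± 0.83 in cluster 16, and Areg by 1.62 ± 0.60 in stromal-like cells. In cluster 1 Has2 and Egfr, 2 of 9 genes tested, were higher in both Fosl2cKO libraries, against 21.9% of all genes. The other tests with an unadjusted p under 0.05 were of Ereg in cluster 16 (-1.61 ± 0.62) and of Tnfaip6. Those of Tnfaip6 were in NK or T-like (2.31 ± 0.80), epithelial-like (-1.01 ± 0.48) and endothelial-like cells (-0.91 ± 0.41). Tnfaip6 in NK or T-like cells averaged 3.24 CPM in Fosl2F/F and 14.7 CPM in Fosl2cKO libraries. Ereg in cluster 16 averaged 4.63 and 1.71 CPM in the same order. Both passed the gene filter through the higher group alone, so their place among the 10 is no support for a difference. Without Fosl2F/F 2 the Tnfaip6 difference was -0.050 in epithelial-like and -0.33 in endothelial-like cells, and in epithelial-like cells it was -1.98 without Fosl2cKO 1, -0.56 without Fosl2cKO 2 and -1.52 without Fosl2F/F 1. In NK or T-like cells it ranged from 1.44 (without Fosl2F/F 1) to 3.26 (without Fosl2F/F 2), and with the called doublets kept it turned to -1.25.

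For Ereg and Areg in cluster 2, Has2 in clusters 1 and 16 and Areg in stromal-like cells, Fosl2cKO 1 was the highest library. Without it these differences were 0.24, 0.16, 0.15, -0.023 and -0.24, in the same order, and none passed. Without Fosl2cKO 2 they were 2.46, 2.22, 2.23, 2.97 and 2.40, and edgeR called all of them, with the remaining Fosl2cKO library assumed to vary like the others. Ereg in cluster 2 was also called without Fosl2F/F 1 (1.70, edgeR adjusted p = 0.0167) and without Fosl2F/F 2 (1.83, 7.5e-06). Areg in cluster 2 was 0.98 without Fosl2F/F 1, where it was not called, and 3.09 without Fosl2F/F 2 (edgeR adjusted p = 1.9e-06). Has2 in cluster 16 was 1.32 and 4.18 without Fosl2F/F 1 and Fosl2F/F 2, neither called. A block with replicate numbers crossed between the groups called Ereg and Areg in cluster 2 and Has2 in cluster 16, and 0.834% of all genes. That pairing has no basis in the design and was picked after seeing these data, so its calls are no support for a difference. For Ereg in cluster 2, Fosl2cKO 1 stood at 92.4 CPM and Fosl2cKO 2 at 20.3, against 15.53 and 17.7 in the controls. In Areg of stromal-like cells Fosl2cKO 1 had 185 UMIs in 38 of 1128 cells and the other libraries 20 to 32 UMIs. Counted over the 16 classes, Fosl2cKO 1 was the highest library in 52 of 111 gene-by-class pairs with at least 10 UMIs (46.8%). Among all genes that passed the gene filter of a class, the median over classes was 25.0%. Fosl2F/F 2 was highest in 27.0% of the pairs, against 20.1% of those genes. Some of the pairs did not pass the gene filter, so the sets compared are not alike. Without Fosl2cKO 2, edgeR called 12 of 85 tests in these 15 classes (14.1%, against 0.984% of all genes), all of them higher in Fosl2cKO 1. Of the 12, Ereg in luteal-like cells and Has2 in stromal-like and pericyte or smooth muscle-like cells were too low to be tested with all libraries and entered once Fosl2cKO 1, where they are high, was the sole Fosl2cKO library. Among the tests also made with all libraries the count was 9 of 75. Without Fosl2cKO 1 it called 3 of 85 (3.53%, against 0.981%), all of them lower in the remaining Fosl2cKO library. These were Ereg in stromal-like cells (-1.68, edgeR adjusted p = 0.0193), Ereg in pericyte or smooth muscle-like cells (-1.57, 0.0878) and Ptgs2 in the latter (-2.35, 0.0640), which with all libraries differed by -0.15, 0.16 and 0.20. Without Fosl2F/F 1 it called 1 of 86 (1.16%, against 0.29%) and without Fosl2F/F 2 it called 3 of 85 (3.53%, against 1.21%). With no gene filter it called 9 of 130 (6.92%, against 1.13%), and with the replicate number as a block none, where 0.246% of all genes were called. The summed immediate early and heat shock genes moved with Fosl2cKO 1 in some classes. Their level was 16390, 19380, 22290 and 15950 CPM in stromal-like cells and 14770, 15100, 17660 and 10970 CPM in cluster 1, with Fosl2cKO 1 highest. In cluster 2 the level was 10140, 16730, 13270 and 15850 CPM, where Fosl2cKO 1 was not highest. Their part in the levels of the 10 genes was not tested.

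Over all genes in the 25 classes and states, 5.62% of tests had an unadjusted p under 0.05, edgeR called 0.0852% and DESeq2 0.567%. UMIs of GC-like cells enter both the GC-like sums and those of the GC states, so the tests pooled here are not independent. Of 11 EGF ligands, receptors and sheddases (152 tests in 25 classes and states), 13 feedback genes of ERK signalling (247 tests), 11 prostaglandin genes (170 tests) and 16 hyaluronan matrix genes (188 tests), edgeR called none in either direction. Unadjusted p was under 0.05 in 4, 16, 21 and 7 of these tests (2.63, 6.48, 12.4 and 3.72%), and DESeq2 called 0, 0, 5 and 1 (0, 0, 2.94 and 0.532%), in the same order. Of 20 other genes induced by the surge (323 tests), edgeR called 3 lower and none higher (0.929%), 56 had an unadjusted p under 0.05 (17.3%) and DESeq2 called 15 (4.64%). Cyp11a1, the first enzyme of steroid synthesis, fell by 1.26 on the log2 scale in NK or T-like cells and by 2.07 in endothelial-like cells, which are classes that should lack it. Lhcgr, the receptor of luteinizing hormone, fell by 2.21 in stromal-like cells, from 19.6 and 49.3 to 4.46 and 10.5 CPM. It was also lower in both Fosl2cKO libraries in endothelial-like cells, which should lack it, at 37.3 and 29.6 against 4.14 and 16.3 CPM, and in pericyte or smooth muscle-like cells, at 21.5 and 48.9 against 6.23 and 15.7 CPM. Inha, which stromal cells should lack, moved the same way in stromal-like cells, from 330 and 180 to 92.2 and 88.5 CPM, and the part of free RNA in these values was not tested. Of the 18 immediate early and heat shock genes (444 tests) edgeR called 1 higher and 1 lower (0.45%), with 74 at an unadjusted p under 0.05 (16.7%) and 11 called by DESeq2 (2.48%).

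The pattern of each gene over 100 class-by-library sums was also compared with those of 12266 expressed genes. This is a description in which sums of a library share its depth and GC states share UMIs with the GC-like sums. Ptx3 was closest to A830019P07Rik, Wnt2 and Tbx1 (Pearson r = 0.925, 0.909 and 0.904). Egfr was closest to Pknox2, Snhg18 and Sdc2 (0.905, 0.828 and 0.805), and Ptgs2 to Ccrl2, Cxcl16 and Cysltr1 (0.845, 0.822 and 0.817). Tnfaip6 was closest to Sox9, Col5a1 and Col16a1 (0.828, 0.825 and 0.824), Ereg to Wnt5a, Twist1 and Tmem200a (0.796, 0.792 and 0.788), and Btc to Slc4a11, Bsg and Glt28d2 (0.780, 0.755 and 0.735). The nearest genes of Ptger2 were Ms4a4d, Fbln7 and Kcnip3 (0.767, 0.762 and 0.756) and those of Runx1 were B4galnt1, Il10ra and Dclre1c (0.745, 0.732 and 0.722). Those of Has2 were Srpx, Slc6a11 and Kcns2 (0.691, 0.690 and 0.683) and those of Areg were Nr4a3, Emb and Dgat1 (0.690, 0.686 and 0.684). Among the 10 genes themselves, Ereg and Tnfaip6 were the closest pair (0.745), followed by Areg and Ptgs2 (0.605). Of the neighbours, Areg and Ereg had r = 0.381 and Areg and Btc r = -0.05.

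In stromal-like cells thinned to 2000 UMIs, Egfr and Tnfaip6 were found together in 0.954 to 1.13 times as many cells as independent genes would share, and Egfr and Ptger2 in 0.966 to 1.10 times. For Ereg and Egfr the range was 0.715 to 1.18 times. Runx1 was found with Ptger2 in 1.17, 1.006, 1.24 and 1.31 times as many cells and with Ereg in 1.47, 0.972 and 1.48 times as many in the first 3 libraries, from 13 to 52 cells with both. Ereg and Tnfaip6 could be compared in Fosl2F/F 2 (0.805 times) and Fosl2cKO 1 (1.51 times). In cumulus-like cells Egfr and Runx1 were found together 0.993 to 1.2 times as often. In mural-like cells the pair was found 0.986, 0.483 and 1.30 times as often in the first 3 libraries, from 15, 4 and 14 cells with both. For every pair without Runx1, the expected number of mural-like or cumulus-like cells with both was under 5 in each library, too few to compare.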

How the data were processed

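UMI counts per gene and cell were deposited by the authors for 4 libraries, made with Cell Ranger on GRCm38. The submitters' notes also name Seurat 4.1.0. The matrix headers name cellranger 7.1.0, while the methods name an earlier version, and they state that the authors removed ambient RNA with CellBender. Whether the deposited counts are those before or after this step is not given in the sources used here. A cell was kept if it had 500 or more genes and more than 1000 UMIs, of which less than 10% were mitochondrial and less than 0.1% haemoglobin. Doublets were scored with Scrublet in scanpy 1.11.5 and removed at 0.8% per 1000 cells (614, 4723, 412 and 450 cells). Cells were normalised (sctransform 0.4.2) and integrated and clustered in Seurat 5.3.0 on 30 components, with the 10 genes left out of the features. Limits for naming clusters were set after the clusters were seen. Classes needed 20 cells in every library.

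Counts were summed per class and library and tested with edgeR 4.0.16 (quasi-likelihood, Benjamini-Hochberg over all genes), with DESeq2 1.42.0 as an alternative. CPM are UMIs scaled to a total of 1000000 per class and library. Counting limits for a share of 0 use 3 counts and cover counting error only. The scripts were tested on simulated data: edgeR recovered 40% of 2-fold and 87% of 4-fold changes in GC-like cells (16978 genes), with 36 false calls. Only genes averaging at least 20 UMIs per library were changed. Total UMIs were 120327227 to 148836173 per library, and 0 columns came from outside the series. Named genes were the 10 genes, Fosl2, the 3 most similar genes to each and members of fixed lists past the threshold, with markers such as Inha, Lhcgr and Cd3e named as checks. Genes outside this rule, in the closing observations, were chosen after their values were seen. The 10 genes and the lists were chosen with earlier results of these data known. Numbers shared between replicates of the groups were not used to pair the libraries in the main tests. Whether same-numbered libraries deviate together was looked at in GC-like cells only.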

Additional observations from a re-analysis of the deposited data

How the results depend on the processing

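In GC-like cells none of the 10 genes passed under the alternatives run, while over all genes 1 passed by edgeR, 274 with no gene filter, 169 by DESeq2 and 0 to 133 without single libraries. The number passing in GC states was 0 to 1 when single libraries were left out, and in the other classes 1 to 12. In the other classes it was 9 of 130 tests with no gene filter (all genes 1.13%), 1 with DESeq2 and 0 with the replicate number as a block (all genes 0.246%). No source ties a replicate number to a litter or day of its own, and same-numbered GC-like libraries deviated in opposite directions (r = -0.358 over 4054 genes). A crossed pairing, added after seeing this, gave 3 calls in other classes (all genes 0.834%), Has2 in cluster 16 and Ereg and Areg in cluster 2, and 0 in GC-like cells. Because it was picked from these data, those calls are no support for a difference. With doublets kept, mean GC-like levels were 0.867 CPM (Ereg), 0.798 (Ptgs2), 0.461 (Has2), 10.7 (Tnfaip6), 0.429 (Ptx3) and 2.85 (Ptger2). Runx1 was then at 729 CPM in NK or T-like cells. Ptger2 in stromal-like cells was 27.6 CPM without integration and 27.5 CPM with finer clusters, where 94.9 and 92.9% of the cells of cluster 1, which holds less Ptger2, fell into that class. The cause of these shifts, that of Ptger2 included, was not tested.

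Shares of cells with a UMI follow depth by construction. Thinned to 1000 UMIs, mean GC-like shares were 0.0396% (Ereg), 0.371% (Btc), 8.46% (Egfr), 0.0223% (Ptgs2), 0.0576% (Has2), 0.848% (Tnfaip6) and 15.1% (Runx1), and the shares elsewhere were 3.97% (Areg) and 56.5% (Runx1) of NK or T-like, 35.4% (Egfr, cluster 1), 11.4% (Ptgs2, dendritic-like), 7.28% (Ptx3, lymphatic endothelial-like) and 3.002% (Ptger2, stromal-like). Without thinning, GC-like shares were 1.77% (Areg), 0.668% (Ereg), 5.15% (Btc), 51.4% (Egfr), 0.600% (Ptgs2), 0.535% (Has2), 7.63% (Tnfaip6), 0.584% (Ptx3), 2.73% (Ptger2) and 66.5% (Runx1), and the others 9.75% (Ereg, cluster 2), 19.7% (Btc, epithelial-like), 81.6% (Egfr, cluster 1), 29.6% (Ptgs2, dendritic-like), 5.65% (Has2, cluster 16), 20.9% (Tnfaip6) and 15.8% (Ptger2) of stromal-like and 30.3% (Ptx3, lymphatic endothelial-like).

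Over the alternatives run, the estimate changed sign in at least 1 of them for 85 of the 127 tests, and 2 of the 200 turned values passed, both without Fosl2cKO 1. These were Ptgs2 and Ereg in pericyte or smooth muscle-like cells, with ranges of -2.35 (without Fosl2cKO 1) to 1.81 and -1.57 (without Fosl2cKO 1) to 0.98 over the single libraries left out. With the replicate number as a block they were -0.091 and -0.11, and Ereg there was -0.13 with coarser clusters and -0.096 with the 10 genes among the features. Without single libraries, Areg in stromal-like cells ranged from -0.24 to 2.40, Has2 in cluster 16 from -0.023 to 4.18, Ereg in stromal-like cells from -1.68 to 0.57, Tnfaip6 in mural-like cells from -2.91 to 0.036 and the mural-minus-cumulus terms of Areg and Tnfaip6 from -3.30 to 0.30 and from -2.57 to 0.59. Egfr in GC-like cells ranged from -0.29 (without Fosl2F/F 1) to 0.30 (without Fosl2F/F 2) and was 0.04 without Fosl2cKO 1, and Runx1 ranged from -0.25 (without Fosl2F/F 1) to 0.64 (without Fosl2F/F 2) and was -0.11 without Fosl2cKO 1. With doublets kept, Ptx3 in GC-like cells differed by 0.0041 and Tnfaip6 in NK or T-like cells by -1.25. With 2 libraries per group, edgeR recovered 30% of simulated 2-fold changes in mural-like cells (11583 genes) and 89% of 4-fold ones. Only genes averaging at least 20 UMIs per library were changed. These shares therefore do not cover genes as scarce in mural-like cells as Btc, Ereg, Ptgs2, Has2, Ptx3 or Ptger2.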

Other observations

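The Areg-positive lymphocytes differed from the other NK or T-like cells, in genes chosen after their values were seen. Thinned to 2000 UMIs, 7, 2, 17 and 12 cells held an Areg UMI. Il1rl1, the receptor for interleukin 33, was found in 57.1, 50, 41.2 and 33.3% of them and in 3.21, 2.78, 1.14 and 2.45% of the Areg-negative cells. Rora, a transcription factor of innate lymphoid cells, was found in 100, 100, 94.1 and 83.3% against 43.0, 58.3, 54.6 and 41.7%. The cytotoxic protease gene Gzma was found in 0, 0, 0 and 8.33% against 21.8, 16.7, 29.9 and 37.4%. No Areg-positive cell held Klrb1c, a natural killer cell receptor gene found in 27.7 to 45.4% of the others. Gata3 was less even, in 71.4, 0, 35.3 and 50% against 18.6, 8.33, 11.4 and 12.9%. Cd3e, a gene of the T cell receptor complex, was found in 14.3, 0, 64.7 and 58.3% against 39.7, 19.4, 49.6 and 24.5%, so it was rarer in the Areg-positive cells of both Fosl2F/F libraries, which were few, and more frequent in those of both Fosl2cKO libraries. No Areg-positive cell held Cd8a, found in 2.78 to 9.09% of the others. No test was made, because the cells of a library are not replicates.

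Of the stromal-like cells thinned to 2000 UMIs, 63, 263, 228 and 66 held a Tnfaip6 UMI. Ier3, an immediate early gene, was found in 65.1, 60.8, 76.8 and 53.0% of them. It was found in 41.6, 46.4, 66.6 and 35.5% of the cells without Tnfaip6. Ier3 was chosen after its values were seen, because it ranked highest by its smallest difference among the libraries. That the difference has the same direction in every library therefore follows from the choice, and no test was made.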
